A study of Homo sapiens with 4 samples.

Results

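The genes described here are 37 protein-coding genes of mitosis, the spindle and cytokinesis, chosen by name from 20037 protein-coding genes of the GRCh38 RefSeq table, in which all 37 were found. They comprised 10 genes of mitotic kinases and cyclins, 8 of the kinetochore and its checkpoint, 3 of the chromosomal passenger complex, 5 of the spindle, 6 of cytokinesis and 3 of anaphase onset, with CDCA3 of mitotic entry and RTTN of the centriole. HCT116 is a human colorectal carcinoma line of epithelial form, and the labels name no treatment or engineered allele. Its chromatin was immunoprecipitated with an antibody against MTA1 in 2 libraries, and 2 libraries of input chromatin without antibody served as controls. The authors' peak calls formed list 1 (32003 peaks) and list 2 (30939 peaks on the same chromosomes, 1 to 22 with X and Y), each from the ChIP and input libraries with the same number. Every value comes from this 1 cell line, and the labels do not say whether the libraries came from separate cultures. The lists held positions and scores but no read counts, so depth is unknown, no spread between libraries could be computed, and every count below is a description without a test.

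MTA1 is a subunit of the NuRD complex, which joins nucleosome remodelling with histone deacetylation and is found at the promoters and enhancers of many active and repressed genes. Genes of mitosis are transcribed late in the cell cycle and are held down in resting and early cycling cells, largely through the MuvB complex, which reads a short promoter element called the cell cycle genes homology region (CHR). MuvB joins repressive partners in the DREAM complex and the activators B-MYB and FOXM1 later in the cycle, often beside CCAAT boxes bound by NF-Y.

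A gene was counted at an end when the midpoint of a peak lay within 1000 bp of either annotated gene end. List 1 peaks lay at an end of 11 of the 37 genes (29.7%), against 24.3% of all protein-coding genes. The 11 were AURKA, NEK2, NDC80, NUF2, BIRC5, TPX2, TACC3, PRC1, ESPL1, CDCA3 and RTTN. List 2 peaks lay at an end of 4 genes (10.8%, against 6.28% of all), which were PLK1, BIRC5, TPX2 and RTTN. A shared region, made by merging list 1 and list 2 peaks that overlapped by at least 1 bp, lay at an end of 3 genes, BIRC5, CDCA3 and RTTN (8.11%, against 2.00% of all). CDCA3 and RTTN were already named in an earlier account of these lists, and without them the counts were 9 of 35 (25.7%) for list 1, 3 for list 2 and 1 (2.86%) for shared regions. The shares then lay nearer to those of all genes.

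Promoter sequences of the genes that carry these peaks are shown so that the peaks can be read against the elements that mark mitotic promoters. They were chosen as genes with a shared region at an end and then by list 1 score, among genes with an entry in the RefSeq promoter table (GRCh38.p14). PRC1, whose list 1 peak lay downstream, and CCNB2, a B-type cyclin gene without a peak at an end, were added for comparison after the values were seen. Each run is the 250 bases before the listed start, read 5′ to 3′ on the strand of the gene, and capitals mark matches to the CHR letters TTTGAA or TTCGAA and to CCAAT, on either strand. The windows are chr12:6851287-6851536 (minus strand) for CDCA3, chr18:70205688-70205937 (minus strand) for RTTN, chr4:1720381-1720630 (plus strand) for TACC3, chr1:163321704-163321953 (plus strand) for NUF2, chr12:53268049-53268298 (plus strand) for ESPL1, chr18:2571307-2571556 (plus strand) for NDC80, chr15:90994536-90994785 (minus strand) for PRC1 and chr15:59104896-59105145 (plus strand) for CCNB2.
CDCA3: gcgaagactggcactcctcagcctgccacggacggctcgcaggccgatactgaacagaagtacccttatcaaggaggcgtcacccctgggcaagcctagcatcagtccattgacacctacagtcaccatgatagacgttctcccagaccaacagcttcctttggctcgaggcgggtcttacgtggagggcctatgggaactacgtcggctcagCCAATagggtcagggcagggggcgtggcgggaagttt
RTTN: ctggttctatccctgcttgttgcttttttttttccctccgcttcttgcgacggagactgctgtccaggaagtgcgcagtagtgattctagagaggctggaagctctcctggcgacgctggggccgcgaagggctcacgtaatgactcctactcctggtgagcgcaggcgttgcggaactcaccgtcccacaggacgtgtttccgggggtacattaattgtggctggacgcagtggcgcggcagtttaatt
TACC3: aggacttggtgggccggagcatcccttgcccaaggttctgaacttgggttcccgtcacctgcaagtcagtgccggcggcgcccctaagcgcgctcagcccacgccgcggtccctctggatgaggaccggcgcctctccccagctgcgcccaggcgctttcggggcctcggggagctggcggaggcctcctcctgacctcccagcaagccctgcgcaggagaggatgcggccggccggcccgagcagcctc
NUF2: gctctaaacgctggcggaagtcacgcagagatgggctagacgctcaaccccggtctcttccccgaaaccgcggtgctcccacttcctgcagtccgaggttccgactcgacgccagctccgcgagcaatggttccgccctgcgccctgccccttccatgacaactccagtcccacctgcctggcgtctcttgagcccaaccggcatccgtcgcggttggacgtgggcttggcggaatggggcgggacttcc
ESPL1: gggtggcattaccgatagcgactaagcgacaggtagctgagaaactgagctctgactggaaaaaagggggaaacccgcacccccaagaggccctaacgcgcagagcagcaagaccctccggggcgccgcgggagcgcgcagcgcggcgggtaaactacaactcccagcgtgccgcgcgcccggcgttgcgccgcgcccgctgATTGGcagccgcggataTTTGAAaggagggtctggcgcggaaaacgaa
NDC80: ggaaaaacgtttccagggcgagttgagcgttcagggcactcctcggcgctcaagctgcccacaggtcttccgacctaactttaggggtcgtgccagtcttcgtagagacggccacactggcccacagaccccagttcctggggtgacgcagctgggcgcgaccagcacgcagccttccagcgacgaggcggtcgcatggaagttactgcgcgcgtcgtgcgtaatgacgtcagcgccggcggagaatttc
PRC1: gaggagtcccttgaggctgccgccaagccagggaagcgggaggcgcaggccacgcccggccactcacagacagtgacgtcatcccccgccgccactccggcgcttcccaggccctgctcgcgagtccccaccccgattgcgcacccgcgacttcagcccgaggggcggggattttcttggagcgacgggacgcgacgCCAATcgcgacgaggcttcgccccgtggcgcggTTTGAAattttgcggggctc
CCNB2: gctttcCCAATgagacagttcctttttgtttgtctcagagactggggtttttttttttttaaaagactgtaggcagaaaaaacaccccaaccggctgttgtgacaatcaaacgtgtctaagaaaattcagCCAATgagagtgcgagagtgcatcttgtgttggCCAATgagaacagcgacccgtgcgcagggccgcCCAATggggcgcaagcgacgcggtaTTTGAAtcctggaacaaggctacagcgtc

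The list 1 peak covered all 250 bases shown for RTTN, TACC3, NUF2, ESPL1 and NDC80, and none of those shown for CDCA3 and PRC1. The list 2 peak covered all 250 bases of the RTTN window. In ESPL1, the CHR letters began 31 bases and the CCAAT letters (on the other strand) 48 bases before the start. PRC1 had the CHR letters at 20 and CCAAT at 53 bases, and CCNB2 had the CHR letters at 29 bases with CCAAT at 54, 87, 120 and 244 bases. CDCA3 had CCAAT at 37 bases before the start. RTTN, TACC3, NUF2 and NDC80 had no match in the bases shown. With the 50 bases after the start included, NUF2, NDC80 and CDCA3 did have the CHR letters TTTGAA. Those letters cross or follow the start and are therefore not printed.

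**Figure D1:**
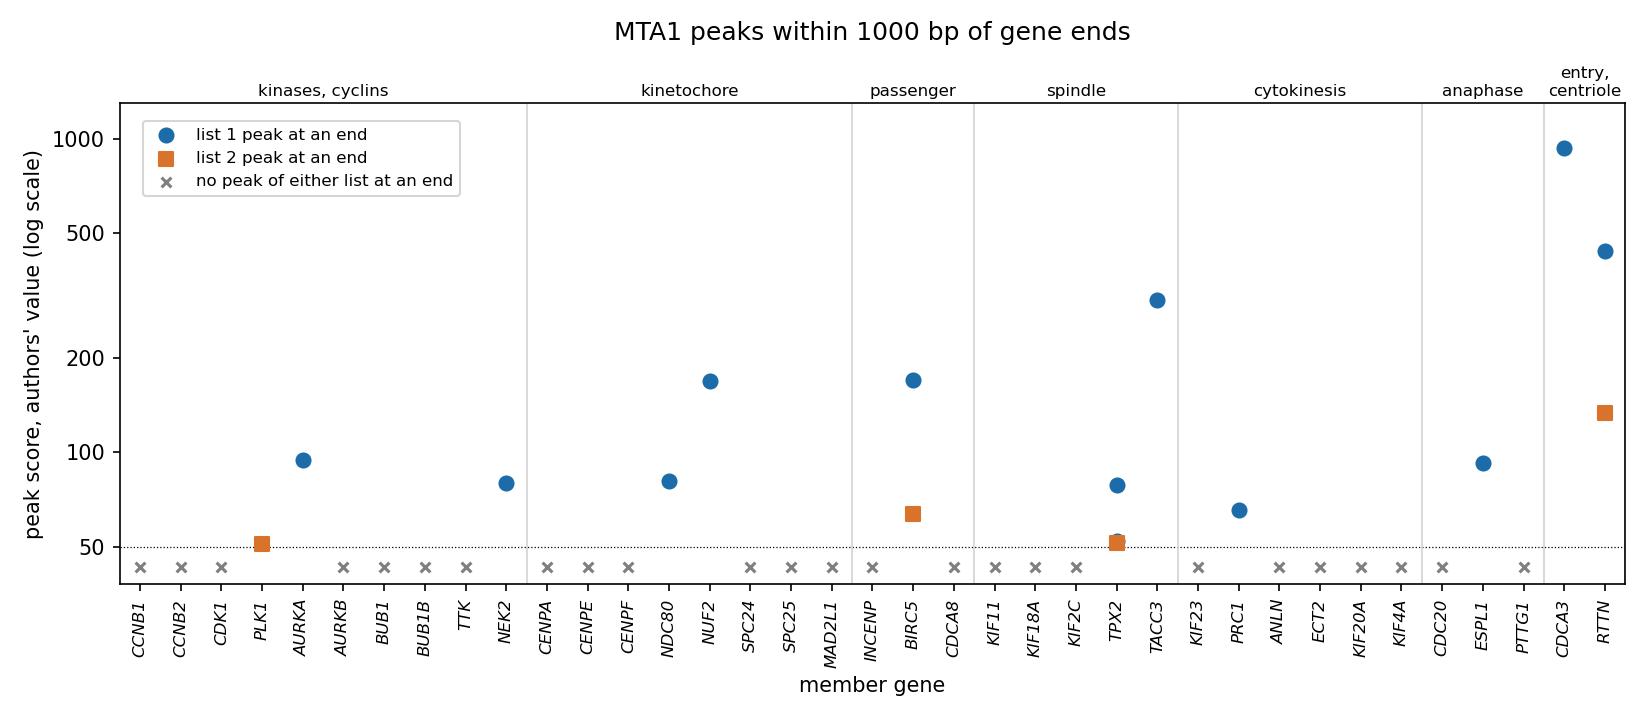
Score of each peak at an end of the 37 genes (vertical axis, log scale, the authors' own value), with genes ordered by role along the horizontal axis. Circles are list 1 peaks, squares are list 2 peaks, and crosses below the dotted line at the lowest score of 50 mark genes with no peak at an end. CDCA3 (935.03), RTTN (438.08) and TACC3 (305.34) had the highest list 1 scores, and kinases and cyclins ranged from 80.16 to 94.55 in list 1.

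Among kinases and cyclins, which drive entry into and passage through mitosis, list 1 peaks were found at an end of 2 of 10. AURKA, the kinase of centrosome maturation and spindle assembly, had a peak at chr20:56392222-56392977 with a score of 94.55 (rank 4812 of 32003). Its midpoint lay 384 bp outside the gene and nearer to an end of CSTF1, a gene of messenger RNA 3′ end processing, at 220 bp. NEK2, a kinase of centrosome separation, had a peak at chr1:211675250-211676199 with a score of 80.16. That midpoint lay 103 bp upstream of the start and 38 bp from an end of the non-coding NEK2-DT. PLK1, the polo kinase, was the only gene of the 37 with a list 2 peak and no list 1 peak at an end. The PLK1 peak (23677844 to 23678274 of chromosome 16) scored 51.23, close to the lowest score of 50 in that list, and lay 830 bp upstream of the start, nearer to an end of the dynactin gene DCTN5 (587 bp). CCNB1, CCNB2, CDK1, AURKB, BUB1, BUB1B and TTK had no peak of either list at an end. Most protein-coding genes also had none, as 24.3% had one in list 1 and 6.28% in list 2.

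Kinetochore genes, whose proteins attach chromosomes to spindle microtubules and signal faulty attachment, included 2 of 8 with a list 1 peak at an end. These were NDC80 and NUF2, which encode partner subunits of the microtubule-binding NDC80 complex. NUF2 had a peak at chr1:163321439-163322209 with a score of 168.79 (rank 574), centred 130 bp upstream of the start and 89 bp from an end of RGS5, a regulator of G protein signalling. An end of the non-coding LOC127814295 also lay 89 bp from that midpoint. NDC80 had a peak at chr18:2571019-2571847 with a score of 81.21 (rank 7891), centred 124 bp upstream and 72 bp from an end of METTL4, a methyltransferase gene. SPC24 and SPC25, the other subunits of that complex, had no peak of either list at an end, and nor did CENPA, CENPE, CENPF or MAD2L1. Both kinetochore peaks therefore lay at closely spaced gene ends (219 bp apart at NUF2 and 52 bp at NDC80), with the neighbour slightly nearer, and list 2 had no peak at any kinetochore gene end.

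The chromosomal passenger complex holds AURKB at centromeres and later at the spindle midzone. Its subunit gene BIRC5, which encodes survivin, had overlapping peaks of both lists. The list 1 peak (78213934 to 78214910 of chromosome 17) scored 170.56 (rank 550) and was centred 169 bp inside the lower-coordinate end. The list 2 peak (78214019 to 78214695) scored 63.4 (rank 12964 of 30939), was centred 104 bp inside the same end, and lay wholly within the list 1 peak. No other protein-coding gene end was within 3000 bp of either midpoint. INCENP, the scaffold of the complex, and CDCA8, which encodes borealin, had no peak at an end.

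Of the 5 spindle genes, TACC3 and TPX2 had list 1 peaks at an end. TACC3, which stabilises spindle fibre microtubules, had the widest peak of any of the 37 genes, 2770 bp (1719322 to 1722091 of chromosome 4), with a score of 305.34 (rank 82). It was centred 75 bp inside the start, and an end of TMEM129 lay 617 bp from the midpoint. The gap from this peak to the nearest list 2 peak was 17366 bp. TPX2, an activator of AURKA on the spindle, had a list 1 peak at each end. The peak at the lower-coordinate end (31739077 to 31739731 of chromosome 20) scored 78.74, and the one at the higher-coordinate end (31801573 to 31802010) scored 52.29. A list 2 peak with a score of 51.35 lay 925 bp outside the lower-coordinate end and 476 bp from the list 1 peak, so TPX2 had peaks of both lists at that end that did not overlap. The kinesin genes KIF11, KIF18A and KIF2C had no peak at an end.

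A list 1 peak was found at an end of 1 of the 6 cytokinesis genes. PRC1, which bundles antiparallel microtubules of the spindle midzone, had a peak at chr15:90993792-90994446 with a score of 65.34 (rank 14954), centred 416 bp inside the gene. An end of the non-coding LOC124903556 lay 660 bp from the PRC1 midpoint. KIF23, ANLN, ECT2, KIF20A and KIF4A had no peak at an end in either list. Anaphase onset genes had 1 of 3. ESPL1, which encodes separase, the protease that cleaves cohesin, had a peak at chr12:53267955-53268615 with a score of 92.78 (rank 5120), centred 14 bp upstream of the start. CDC20 and PTTG1, an activator of the anaphase-promoting complex and the separase inhibitor securin, had no peak of either list.

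CDCA3 and RTTN had the best-ranked peaks. The list 1 peak assigned to CDCA3, whose protein is a trigger of mitotic entry, spanned 6851551 to 6853002 of chromosome 12 with a score of 935.03 (rank 3). It was centred 990 bp upstream of CDCA3 and 126 bp from an end of the deubiquitinase gene USP5. The overlapping list 2 peak (6852152 to 6852662) scored 301.5 (rank 60) and was centred 1121 bp from CDCA3, which put CDCA3 outside the list 2 count. CDCA3 thus sat at the edge of the distance used, and both peaks were nearer to USP5. RTTN encodes rotatin, a protein of centriole assembly. Its list 1 peak (70205299 to 70206275 of chromosome 18) scored 438.08 (rank 27) and was centred 100 bp upstream of the start. The RTTN list 2 peak (70205591 to 70206185) scored 133.13 (rank 256), was centred 201 bp upstream, and lay wholly within the list 1 peak. The nearest other annotated gene end was that of the non-coding LOC105372180, 34 bp from the list 1 midpoint and 135 bp from the list 2 midpoint. Next beyond the distance were CDCA8 at 2121 bp in list 1 and, after CDCA3, CENPE at 1586 bp in list 2, while TPX2 at 925 bp was the last inside it in list 2.

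**Figure D2:**
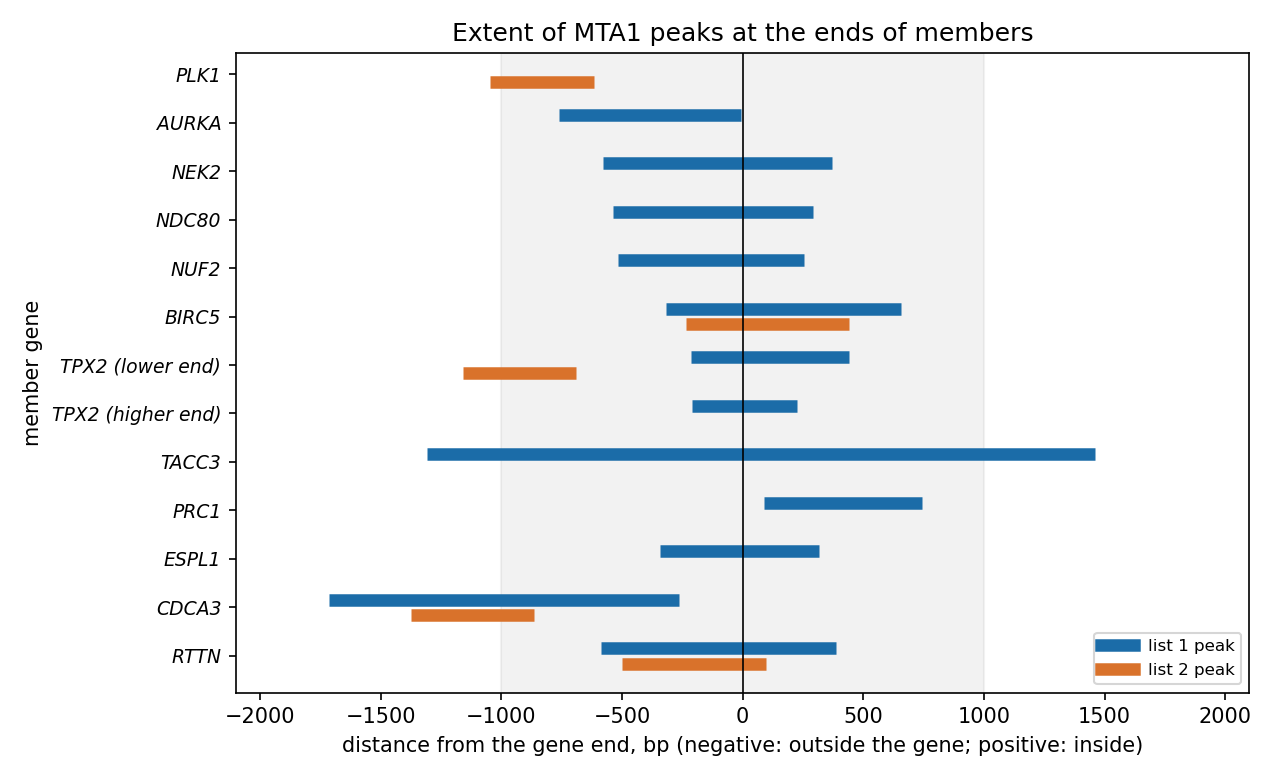
Extent of each peak at an end of a gene (horizontal axis, bp from that gene end, negative outside and positive inside the gene), with 1 row per gene end and list 1 above list 2. The grey band is the distance of 1000 bp within which a midpoint was counted, and the list 2 peak of CDCA3, centred at 1121 bp, is drawn for comparison. BIRC5, RTTN and CDCA3 had overlapping bars of both lists, the TPX2 bars at the lower end did not overlap, and the TACC3 bar was the widest.

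Peaks at ends lay mainly at gene starts. Of the 33 genes with a listed start, 8 had a list 1 peak at the start (24.2%, against 20.6% of 15843 genes) and 0 had one at the 3′ end (against 6.41%). For list 2, the counts were 2 at the start (6.06%, against 4.68%) and 0 at the 3′ end (against 1.74%). Without CDCA3 and RTTN, 6 of 31 genes had a list 1 peak at the start (19.4%) and 1 a list 2 peak (3.23%), both below the shares of all genes. AURKA, BIRC5, TPX2 and TTK had no entry in the promoter table and are not in these counts. TPX2 had a list 1 peak at each end, so a 3′ end peak of that gene is left out. The list 1 peaks at ends of the 37 genes had a median score of 93.66 (12 peaks, 52.29 to 935.03), against 71.69 for all 4668 list 1 peaks at ends of protein-coding genes. In list 2 the order was the other way, with a median of 57.38 for 4 peaks against 62.63 for all 1174. All 11 genes kept a peak when only the better-scoring 50% of list 1 was used, a filter under which 16.4% of all protein-coding genes had one. The 12 peaks and 11 genes include CDCA3 (935.03) and RTTN (438.08), already named in an earlier account of these lists. No median score or filtered count was computed without them. Counting any overlap of the peak with the window gave 29.7% against 28.1%, a window of 500 bp 27.0% against 16.7%, and a window of 3000 bp 35.1% against 35.3%, so the difference from all genes depended on the setting.

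Close neighbours bear on the assignment of these peaks. Of the 11 genes with a list 1 peak at an end, 4 (AURKA, NDC80, NUF2 and CDCA3) had it nearer to an end of another protein-coding gene, or 36.4%, against 11.7% of the 4874 genes called in all. Counted only where the gene itself had the nearest end, 7 of 37 genes remained (18.9%, against 21.5%). An end of another protein-coding gene lay within 1000 bp of an end for 12 of the 37 genes (32.4%, against 28.5% of all), and 5 of these 12 had a list 1 peak, against 6 of the other 25. Over all protein-coding genes the corresponding shares with a list 1 peak were 32.5% with such a neighbour and 21.1% without.

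Side by side, the groups held too few genes for a comparison beyond their counts. List 1 peaks lay at ends of 2 of 10 kinases and cyclins, 2 of 8 kinetochore genes and 1 of 6 cytokinesis genes, against 24.3% of all protein-coding genes. With peaks given only to the gene with the nearest end, the counts were 1, 0 and 1, since AURKA, NDC80 and NUF2 dropped out. A list 2 peak lay at the end of 1 kinase gene (PLK1) and of 0 kinetochore and 0 cytokinesis genes.

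Inside the genes, more than 1000 bp from both ends, the lists differed. List 1 had 10 peaks inside 8 of the 37 genes (21.6%, against 35.0% of all protein-coding genes), and list 2 had 27 peaks inside 17 (45.9%, against 33.4%). Per 100 kb of interior, list 1 had 0.728 peaks in these genes against 1.34 over all protein-coding genes, and list 2 had 1.97 against 1.25. The median gene length was 27931 bp, against 24115 bp over all. The interiors summed to 1374 kb in the 37 genes and 1257000 kb in all 20037, so the mean interior per gene was shorter in the 37. These interior peaks scored 50.7 to 98.65 in list 1 (median 66.24, against 64.08 over the whole list) and 51.68 to 121.98 in list 2 (median 60.12, against 60.62). With the better-scoring 50% of each list, 6 genes held a list 1 peak (16.2%, against 22.3%) and 9 a list 2 peak (24.3%, against 22.1%).

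Kinases and cyclins had no list 1 peak inside and 1 list 2 peak in each of CCNB1 (70.79), CCNB2 (54.62), PLK1 (51.85) and BUB1B (107.53, rank 789), the last a gene of the spindle checkpoint. Kinetochore genes had 1 list 1 peak, in CENPE (52.96), a kinesin gene of chromosome alignment, and 7 list 2 peaks. Of these 7, CENPE held 3 (53.65 to 62.71), CENPF held 2 (62.06 and 121.98), and NDC80 (66.78) and SPC24 (75.98) held 1 each. The CENPF peak at 214651932 to 214652487 of chromosome 1 (rank 399) was the best-scoring list 2 peak inside any of the 37 genes. In the passenger complex group, list 1 peaks lay inside INCENP (79.16 and 50.92), BIRC5 (59.13) and CDCA8 (72.59), and a list 2 peak inside BIRC5 (54.05). All 3 genes of this small group thus held a list 1 peak, against 35.0% of all protein-coding genes. The scores of 59.13 and 50.92 were below the list 1 median of 64.08. AURKB, which belongs to the complex but was grouped with the kinases, had no peak of either list.

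Spindle genes had list 1 peaks inside TACC3 alone (98.65 and 50.7) and list 2 peaks inside TPX2 (61.85, 66.6 and 74.84), KIF11 (53.91 and 74.9) and KIF2C (51.68 and 52.96). Among cytokinesis genes, ANLN, which encodes the contractile ring scaffold anillin, held the only shared region inside any of the 37 genes (2.70%, against 2.34% of all). The ANLN region (36403665 to 36404290 of chromosome 7) joined a list 1 peak of score 66.47 with a list 2 peak of score 59.22, 14079 and 14131 bp from the start, and ANLN had a second list 2 peak (58.23). ECT2, the exchange factor that activates RHOA at the division site, held 3 list 2 peaks (60.12 to 92.61) and PRC1 held 1 (55.67). ESPL1 held 1 peak of each list (66.0 and 53.45), 6346 bp apart, and RTTN, the longest of the genes at 202657 bp, held 1 of each (92.53 and 56.4).

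**Figure D3:**
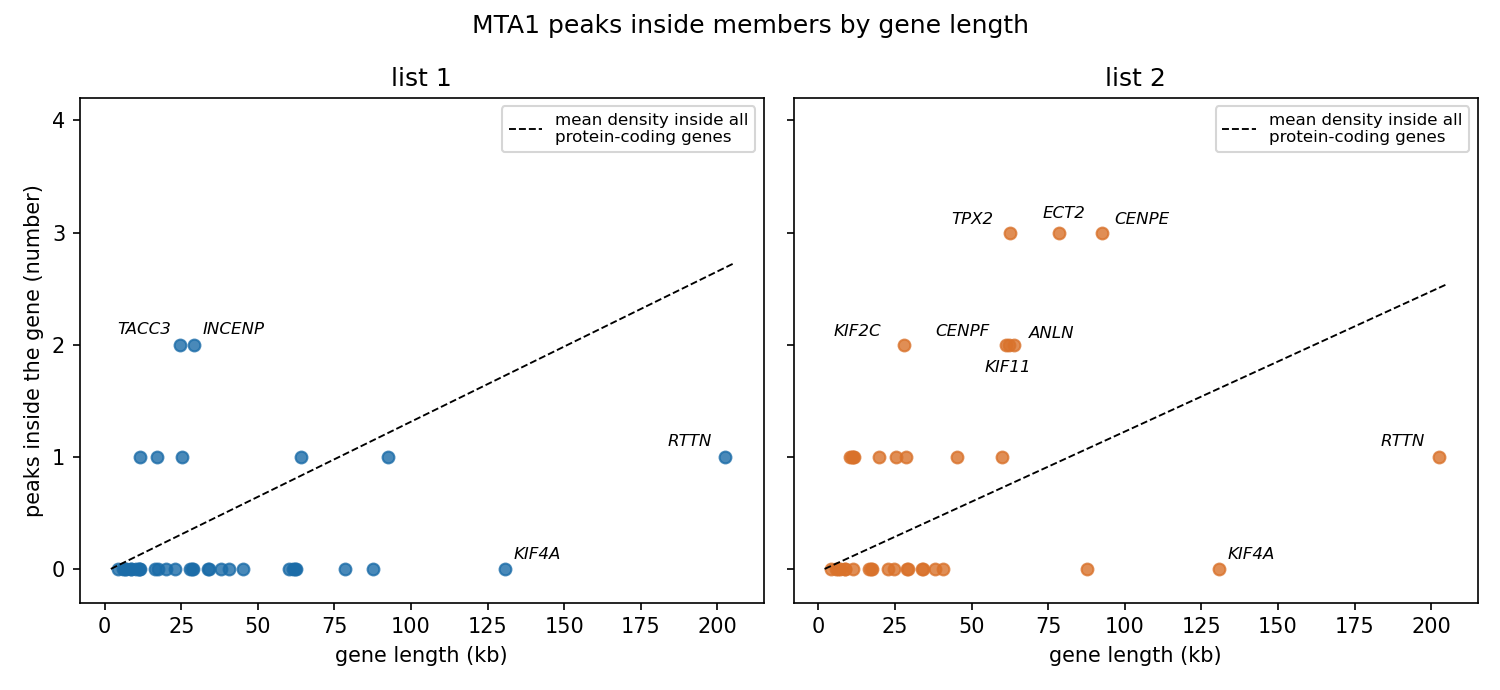
Number of peaks inside each of the 37 genes (vertical axis) against gene length in kb (horizontal axis), for list 1 on the left and list 2 on the right. Points are genes, the dashed line is the mean density inside all protein-coding genes (1.34 and 1.25 peaks per 100 kb of interior), and genes with 2 or more peaks or a length above 100 kb are named. TPX2, ECT2 and CENPE held 3 list 2 peaks each, and no gene held more than 2 list 1 peaks.

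A peak of either list at an end or inside was found for 24 of the 37 genes (64.9%, against 61.8% of all protein-coding genes). The 13 without any were CDK1, AURKB, BUB1, TTK, CENPA, SPC25, MAD2L1, KIF18A, KIF23, KIF20A, KIF4A, CDC20 and PTTG1. KIF4A, a chromokinesin gene of 130783 bp, is the only one of the 37 on chromosome X, and its nearest list 1 and list 2 peaks lay 647683 and 110254 bp from its ends. Over the 37 genes, the median distance from a gene end to the nearest peak was 14.1 kb in list 1 and 10.5 kb in list 2, against 9.29 and 16.9 kb over all protein-coding genes.

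Many promoters of these genes held letters that the choice of genes did not use. In windows from 250 bases before to 50 after the listed start, read on both strands, TTTGAA or TTCGAA occurred in 23 of 33 promoters (69.7%, against 13.5% of 15843 promoters). CCAAT occurred in 25 (75.8%, against 36.4%), and both occurred in 19 (57.6%, against 5.57%). In 107 promoters of the other mitosis genes described below, the shares were 42.1% for TTTGAA or TTCGAA, 50.5% for CCAAT and 25.2% for both. The letters of an E2F-like site (TTT, then 2 letters that are each G or C, then CGC) occurred in 2 of the 33, CDK1 and CENPA (6.06%, against 4.44%). Their share in the 107 promoters of the other mitosis genes was 14.0%. Matches of these motifs may overlap, and a match describes letters alone. The median GC content of the windows was 61.3% (47.7 to 72.7%), against 62.7% over all promoters, with a median of 24 CpG dinucleotides against 22.

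List 1 peaks lay at the start of 3 of the 19 promoters with both elements (15.8%), namely CDCA3, ESPL1 and PRC1, and of 5 of the other 14 (35.7%), namely RTTN, TACC3, NDC80, NUF2 and NEK2. Of the 3, the ESPL1 peak alone covered the elements shown above. Over all protein-coding genes, 117 of 883 promoters with both elements had a list 1 peak at the start (13.3%), against 3142 of 14960 others (21.0%). Base composition moved with this split, with a median GC content of 52.3% in the 883 and 63.3% in the 14960. At a GC content of 55 to 65%, list 1 peaks lay at 22.5% of 271 promoters with both elements and at 22.7% of 2553 with neither. Below 55% the shares were 5.96% of 503 and 9.07% of 1720, and from 65% upward 23.9% of 109 and 29.0% of 4558. The outer bands did not match GC content, so the lower shares there cannot be told apart from base composition. Median GC was 43.3% with both elements against 48.0% with neither below 55%, and 68.7% against 72.0% from 65% upward. List 2 shares, from the lowest band up, were 2.19% against 1.57%, 4.43% against 3.6% and 4.59% against 7.74%. Among the 37 genes the medians were closer, 60.3% with both elements and 61.3% in the other 14, and with 8 peaks in all a difference could not be assessed.

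Other genes of mitosis were taken from a list of 126 picked by textbook role, none of them among the 37. List 1 peaks lay at an end of 43 (34.1%, against 24.3% of all protein-coding genes), list 2 peaks of 10 (7.94%, against 6.28%) and shared regions of 5 (3.97%, against 2.00%). With the better-scoring 50% of list 1, 27 remained (21.4%, against 16.4%), and where the gene itself had to have the nearest end, 32 (25.4%, against 21.5%). The 5 with a shared region were CHMP4B, a gene of the membrane-cutting ESCRT-III machinery (scores 980.63 and 106.01), CDC25A, a phosphatase gene that activates cyclin-dependent kinases (99.87 and 79.62), ANAPC2, of the anaphase-promoting complex (107.3 and 77.79), and the kinetochore genes ZW10 (60.44 and 64.93) and CENPM (52.47 and 59.5). The CENPM region lay nearer to an end of TNFRSF13C (208 bp against 598 bp). The CDC25A peaks barely met, since the list 1 peak began at the last base of the list 2 peak (48188344 of chromosome 3). Their midpoints lay 316 bp upstream of the start in list 1 and 586 bp inside it in list 2. CHMP4B had the second-ranked peak of list 1.

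The counts by role are of small groups and stand beside the 24.3% of all protein-coding genes with a list 1 peak at an end. Such peaks lay at ends of 13 of 25 spindle and motor genes (52.0%), led by HAUS4 (116.28), FAM83D (101.6) and KIF18B (94.64). Most of the other genes in this group scored below the list 1 median of 64.08, down to 50.52. Some of their peaks lay nearer to an end of another protein-coding gene or at the 3′ end. Checkpoint and kinetochore genes had 10 of 33 (30.3%), among them CENPT (223.79) and KNL1 (71.59). Entry and exit regulators had 4 of 15 (26.7%), namely the CDC25 phosphatase genes CDC25B (167.68), CDC25C (103.33) and CDC25A, together with MASTL (80.33). Cytokinesis had 4 of 9 (44.4%), led by CHMP4B, TSG101 (159.75) and VPS4A (90.22), which all act in the ESCRT machinery. Condensin and cohesin genes had 4 of 18 (22.2%), led by WAPL (165.28), a cohesin release factor, NCAPH2 (115.5) and NCAPD2 (64.37). Genes of the anaphase-promoting complex and its regulators had 5 of 18 (27.8%), led by ANAPC2, CDC16 (96.12) and the regulator gene FBXO5 (92.89). Centriole genes had 3 of 8 (37.5%), CDK5RAP2 (260.52), SASS6 (163.25) and CEP152 (57.46). Of the peaks named by role here, several lay nearer to an end of another protein-coding gene, namely CENPT (NUTF2), CDC25B (the centromere gene CENPB), MASTL (YME1L1), NCAPH2 (TYMP) and NCAPD2 (MRPL51).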

How the data were processed

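MTA1 ChIP and input libraries of HCT116 cells were sequenced from both fragment ends, per the labels' protocols. The submitters' processing notes name cutadapt, Bowtie2 and the GRCh38 build, with no versions. Peak names have the form used by MACS, whose settings and filters were not stated. The score in column 5 of the deposited lists is the authors' value for each peak, on a scale not stated, and was used to rank and filter within a list. Peaks were called per replicate. Sonicated fragments were amplified and size-selected, per the labels' protocols, and what this did to the calls was not tested.

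Peaks on chromosomes 1 to 22, X and Y were compared with RefSeq genes (GRCh38.p14) in Python 3.11.15 with pandas 2.3.3 and numpy 2.4.6. A peak within 1000 bp of several genes was counted for each. Starts came from the RefSeq promoter table, which held 33 of the 37 genes. In the list of 126 other genes, CENPJ was matched through a synonym. Positions are 1-based, and exons and introns were not told apart. The members, role groups and lists were chosen with earlier results of these data known. Genes were named by a fixed rule: every member with a peak at an end, interior peaks of the members with most of them (ties kept), members without a peak, and, of the other genes, those with a shared region and the 3 best list 1 scores per role, of which 1 is not reported here. Splits by promoter letters, GC content and neighbours were chosen after the data were seen. No set test was made. The counting code was tested on simulated data. Alternatives were windows of 500 and 3000 bp, any overlap of the peak, the nearest gene alone, reciprocal overlap of at least 50% for shared regions, the better-scoring 50% of peaks and either list alone.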

Additional observations from a re-analysis of the deposited data

How the results depend on the processing

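Of 51 comparisons of a count with its value under another setting, 41 stayed within 1.5 times. Counting only the gene with the nearest end gave 7 genes with a list 1 peak at an end, 1 kinase or cyclin gene (NEK2) and 0 kinetochore genes. The list 2 count of 4 fell to 2 (BIRC5 and RTTN) with a window of 500 bp and with the better-scoring 50% of the list, and was 8 with 3000 bp. The shares of all protein-coding genes moved the same way, with 5.41% against 3.8% of all, 5.41% against 3.53%, and 21.6% against 15.0%. Under the better-scoring 50%, genes with a list 2 peak inside numbered 9 and other mitosis genes with a list 1 peak at an end 27. For shared regions, each list alone gave 4 to 11 genes in place of 3, and leaving out CDCA3 and RTTN, a setting chosen after seeing the data, gave 1. CDCA3 was also lost from the shared count with a window of 500 bp, with 50% overlap and with the nearest end alone. No paired analysis was possible because the lists hold calls of ChIP against input with no values per library. Depth is unknown, so a missing peak shows only that none was called.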
